A study of Homo sapiens with 16 samples.

Results

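The genes described here are the 35 that the authors' deposited table for the MDA231 line names under the Gene Ontology term snRNA transcription from RNA polymerase II promoter. They were taken as the identifiers of that single term, and all 35 matched a human gene symbol. The table names 2646 genes in 314 terms, and the 2 tables of the series together name 2676. The genes were thus chosen by the measured list that the authors submitted for enrichment, and the term's own fold and p-values are given as a description and support nothing here.

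The study grew brain metastatic derivatives of 2 established human breast cancer lines, HCC1954-BrM (HER2-positive) and MDA231-BrM (triple-negative), in xenograft mice and took the brains after 30 days. Each line had 4 input libraries and 4 immunoprecipitated (IP) libraries from polyA RNA, 16 libraries in 4 groups of 4. All groups shared the host, the tissue and a dose of 250 mg/kg 5-fluorocytosine given 12 hours before harvest, and the design has no untreated group. The method, Flura-seq, marks new RNA in cells that can convert 5-fluorocytosine and recovers it with an antibody against the marked base. The files analysed are 1 term table per line with no value per library, so neither the line nor the level of any gene could be checked against markers. How genes entered a list, and on which side of an IP and input comparison they lay, is recorded in no source used here, so no direction is given for any gene. The host strain and whether each library came from a single mouse are likewise unstated.

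Small nuclear RNAs are the short, non-coding RNAs at the core of the splicing machinery. Most are made by RNA polymerase II, but from promoters and by a termination route of their own: the SNAP complex binds the promoter, general transcription factors place the polymerase, the little elongation complex helps it along, and Integrator cuts the new transcript at its 3′ end. Nearly all of these factors other than SNAPc and the little elongation complex also serve protein-coding genes. The oligo(dT) step of the protocol selects polyadenylated RNA, so the measurements bear on the mRNAs of these factors and not on the snRNAs themselves.

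Sorted by complex, the 35 genes were 9 subunits of Integrator, 6 of RNA polymerase II, 6 of the little elongation complex and ELL family, 4 of the general factors TFIIA, TFIIE and TFIIF, 3 cyclins of transcription kinases, 2 subunits of TFIID, 2 factors that act on the polymerase's C-terminal domain, 2 promoter-binding activators and 1 cap-binding protein. No SNAPc subunit and no TFIIH subunit was among them. TAF1 and MNAT1, the pair of genes first proposed as markers of the group, were also not in the term (0 of 2), although both are named elsewhere in the table. The sequences that follow show the DNA just before the transcription start of 3 of the 35 genes, 1 each from Integrator, the little elongation complex and the activators. They were picked from the windows that hold no annotated exon, and because SP1, itself among the 35 genes, is known to bind the GC box. The windows of INTS1 and GTF2F2 also hold no annotated exon. They have 1 and 0 GC boxes and are not printed. Each run is the 250 bases before the start in the gene's own direction (RefSeq, GRCh38.p14, plus strand for all 3), and capitals mark GGGCGG or its reverse complement CCGCCC, the GC box letters, where neighbouring matches may abut or overlap. The ICE1 window lies downstream of the earliest ICE1 start in GENCODE, so it precedes the RefSeq start only.
INTS3, chr1:153727800-153728049: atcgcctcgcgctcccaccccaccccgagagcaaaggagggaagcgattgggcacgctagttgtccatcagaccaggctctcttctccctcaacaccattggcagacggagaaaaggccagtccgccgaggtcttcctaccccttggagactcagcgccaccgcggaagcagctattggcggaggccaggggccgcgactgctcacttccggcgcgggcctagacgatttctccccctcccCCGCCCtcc
ICE1, chr5:5422427-5422676: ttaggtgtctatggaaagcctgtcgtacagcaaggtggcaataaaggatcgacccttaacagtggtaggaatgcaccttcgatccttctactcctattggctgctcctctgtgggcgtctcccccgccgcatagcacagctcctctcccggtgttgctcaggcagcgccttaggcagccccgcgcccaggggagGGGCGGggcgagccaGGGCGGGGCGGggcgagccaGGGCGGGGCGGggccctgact
SP1, chr12:53379926-53380175: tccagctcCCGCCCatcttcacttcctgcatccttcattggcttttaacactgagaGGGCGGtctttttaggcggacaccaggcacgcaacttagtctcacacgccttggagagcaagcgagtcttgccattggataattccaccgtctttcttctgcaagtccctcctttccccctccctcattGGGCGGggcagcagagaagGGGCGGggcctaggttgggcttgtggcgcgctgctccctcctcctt

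The GC box letters stood 5 times in the ICE1 window, 4 times in that of SP1 and 1 time in that of INTS3. A window was given for 28 of the 35 genes, and 19 of those 28 (67.9%) held the letters on either strand, beside 56.0% of 15843 windows of protein-coding genes taken the same way. The octamer ATTTGCAT, the letters bound by POU2F1, was in 0 of 28 windows and in 1.65% of all windows. TATAAA was in 0 of 28 and in 9.23% of all, searched on both strands. The median GC content was 64.8% in the 28 windows, from 48.0% for TAF11 to 79.2% for POLR2L, and 62.4% over all windows. These are descriptions of the reference sequence and were not measured in the tumours. ELL2, GTF2E2, INTS5, INTS8, INTS10, NCBP1 and POLR2J were without a window.

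In the authors' deposited table the term held 35 of its 70 background genes (50.0%), where 21.6% of all 16792 background genes were in the MDA231 list. The other 35 background genes of the term are not named there. The authors' deposited table gave it a fold enrichment of 2.32, an unadjusted p of 5.16e-07 and a Benjamini adjusted p of 0.000558. Counting error alone put the fold between 1.61 and 3.21 (exact binomial, 95%), and genes are not independent draws. At the listed share of the background, 15.1 of the 70 genes would be in the list. By unadjusted p the term was number 6 of 314 in the authors' deposited table, after DNA repair and before autophagy. An adjusted p under 0.05 was given to 15 of the 314 terms (4.78%). Among those 15, its fold was the highest, level with fatty acid beta-oxidation. Among the 44 terms with at least 35 genes it was again the highest, and autophagy came next with 1.88 in the authors' deposited table. That limit of 35 is the term's own count. Some smaller terms had a higher fold in the authors' deposited table, among them snRNA processing with 3.21. No fold in this table can pass 4.63, which is reached when every background gene is listed.

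**Figure D1:**
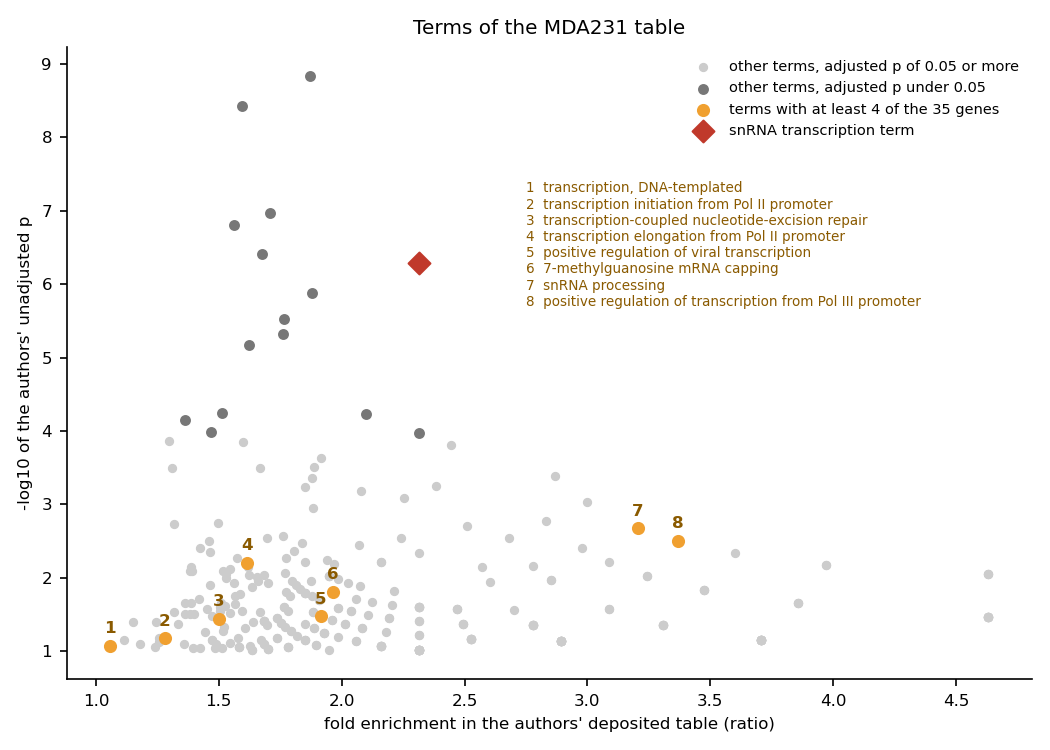
Each point is 1 of the 314 terms of the MDA231 table, with the authors' fold enrichment (ratio) on the x axis and −log10 of the authors' unadjusted p on the y axis. The red diamond is the snRNA transcription term at 2.32-fold, and the 8 numbered terms that name at least 4 of its 35 genes lie lower on the y axis.

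Integrator cuts snRNA transcripts and also ends transcription early at many protein-coding genes. It gave the most genes, 9 of 15 subunits (60.0%): INTS1, INTS3, INTS4, INTS5, INTS6, INTS7, INTS8, INTS10 and INTS14. Of the term's own background genes 50.0% were listed, and of all background genes 21.6%. The shares of the lists that follow are given beside these values, and a longer list can give more genes. They count genes named in the snRNA term, while 21.6% counts genes in the MDA231 list. A gene can be in the MDA231 list and not in such a share. The other 6 subunits were in no listed term of the table, among them INTS9 and INTS11, the nuclease pair of the cutting module, and INTS2, INTS12, INTS13 and INTS15. A gene with no listed term may still have been in the MDA231 list, but only if it is annotated to none of the listed terms. Which genes are so annotated was not checked. INTS4, which completes the cutting module with that pair, was among the 9. INTS1, INTS4, INTS5, INTS6, INTS8 and INTS10 had exactly the same record, with snRNA processing as their only other term. INTS14, part of a side module with INTS10 and INTS13, was in no other term at all.

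snRNA processing drew almost wholly on Integrator. Of its 9 genes in the table, 8 (88.9%) were Integrator subunits, all but INTS14 of the 9 above. The remaining gene was TUT1, a terminal uridylyl transferase that acts on U6 snRNA. The authors' deposited table lists 9 of the term's 13 background genes (69.2%), with a fold of 3.21, an unadjusted p of 0.0021 and a Benjamini p of 0.323. The 8 shared genes were 22.9% of the 35. The pair of snRNA terms thus drew on the same Integrator genes, and their values are not independent.

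INTS3 (ENSG00000143624; GRCh38 chromosome 1, 153728067 to 153774808, plus strand) differed from the other Integrator genes in its terms. INTS3 also belongs to a complex that binds single-stranded DNA at breaks. It was named in 4 other terms: cellular response to DNA damage stimulus, DNA repair, response to ionizing radiation and snRNA processing. INIP, a partner of INTS3 in the single-stranded DNA complex, was not in the snRNA term but was named in the first 3 of these. The other Integrator-associated genes searched, NABP1, NABP2 and INTS6L, were in no listed term. Beside snRNA processing, INTS7 was in cellular response to ionizing radiation, to which the authors' deposited table gives a fold of 1.79 and a Benjamini p of 0.899.

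RNA polymerase II, the enzyme itself, gave 6 of 12 subunits (50.0%). POLR2A (ENSG00000181222; chromosome 17, 7484366 to 7514616, plus strand) encodes the largest subunit, which carries the C-terminal domain. POLR2C and POLR2J encode a pair of subunits around which the enzyme assembles, and POLR2D a subunit of its stalk. POLR2E and POLR2L encode small subunits that polymerases I and III share. POLR2B, the second-largest subunit, and POLR2F, POLR2G, POLR2H, POLR2I and POLR2K were in no listed term.

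The polymerase genes were named as a block in 5 other terms. All 6 were in transcription elongation from RNA polymerase II promoter, transcription initiation from RNA polymerase II promoter, 7-methylguanosine mRNA capping, positive regulation of viral transcription and transcription-coupled nucleotide-excision repair. These 5 were the whole record of POLR2A. POLR2C and POLR2J added transcription, DNA-templated, and had identical records of 6 terms. POLR2L, also with 6, added transcription elongation from RNA polymerase I promoter. POLR2D had 7, adding transcription, DNA-templated and the deadenylation-dependent mRNA decay term. POLR2E had 8, adding viral process, transcription, DNA-templated and the polymerase I elongation term. None of the terms of the 6 polymerase genes other than snRNA transcription had an adjusted p under 0.05 in the authors' deposited table.

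Some of the 35 genes have annotated copies that carry their name, 20 annotated entries for 10 genes, whose sequence identity was not measured. Among these entries POLR2J is the one with protein-coding copies, POLR2J2 and POLR2J3 on the same chromosome 7. Its reads may therefore be uncertain, which could not be checked here. Genes named with other endings, such as INTS6L, were not among the entries counted. INTS4, ELL2, POLR2C and POLR2L are among those with copies named as pseudogenes. Read counts can be split or dropped between copies, and no source used here says how this was handled.

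**Figure D2:**
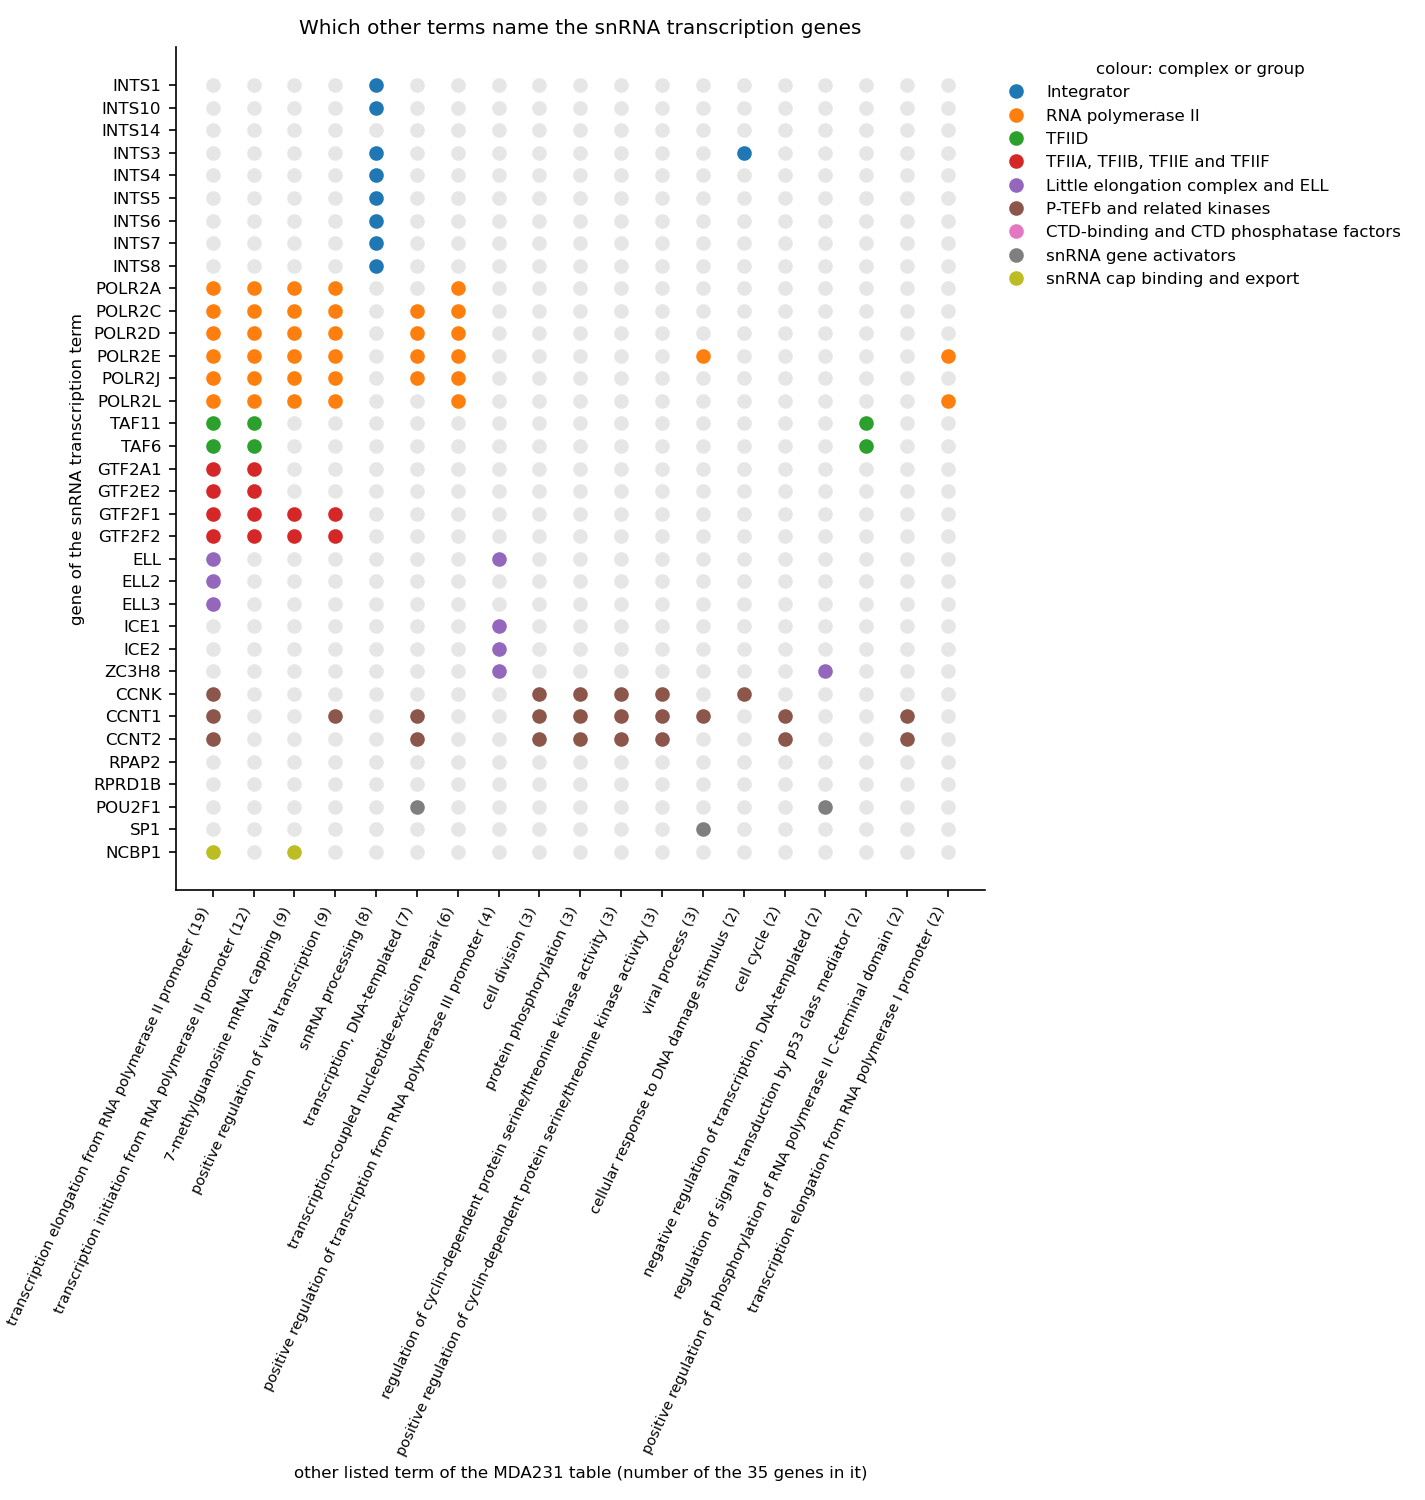
The y axis lists the 35 genes by complex (colour) and the x axis the 19 other terms that name at least 2 of them, with the number in brackets; a coloured dot marks a gene named in that term and a grey dot one that is not. The Integrator genes fill snRNA processing with 8 dots, the 6 polymerase genes fill the same 5 terms, and the 3 cyclins share cell division, protein phosphorylation and both cyclin-dependent kinase terms.

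Among the general transcription factors, TFIIF gave both of its subunits, GTF2F1 and GTF2F2, TFIIA its large subunit GTF2A1, and TFIIE its smaller subunit GTF2E2, 4 of 7 genes searched (57.1%). GTF2A2, GTF2B and GTF2E1 were in no listed term. All 4 genes were named under both initiation and elongation, which was the entire record of GTF2A1 and GTF2E2. GTF2F1 and GTF2F2 were also in mRNA capping and positive regulation of viral transcription, and GTF2F1, with 5 other terms, in response to virus. The authors' deposited table gives response to virus a fold of 1.52 and a Benjamini p of 0.547.

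TFIID, the factor that recognises core promoters, gave TAF6 and TAF11, 2 of 18 genes searched (11.1%). Both encode subunits with histone-like folds, and both were named under initiation, elongation and regulation of signal transduction by p53 class mediator. TAF6 had 5 other terms and TAF11 had 3. A further 4 TFIID genes were in the table but not in the snRNA term: TAF1, the largest subunit, in 18 terms, TAF9B in 5, TAF10 in 4 and TAF12 in 3. All 4 were in the elongation and initiation terms. TBP and 11 other TFIID genes were in no listed term.

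TFIIH, which opens the promoter DNA and phosphorylates the polymerase, was absent from the snRNA term (0 of 10 genes searched) but not from the table. MNAT1 and CCNH, a pair of subunits of its kinase module, were named in 12 and 11 terms. The kinase CDK7 and the other 7 genes searched were in no listed term. MNAT1 was in 3 terms with an adjusted p under 0.05 in the authors' deposited table, namely DNA repair, cell cycle and protein phosphorylation. TAF1 was also in 3, namely cellular response to DNA damage stimulus, cell cycle and protein phosphorylation, and CCNH in protein phosphorylation alone. A gene named in any term was in the MDA231 list, so these TFIID and TFIIH genes were listed but not annotated to the snRNA term in that table.

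SNAPc, the complex that recognises snRNA promoters, had 0 of 5 subunits in the snRNA term or in any other listed term. The promoter-binding activators were represented by POU2F1, an octamer-binding factor, and SP1, 2 of 5 genes searched (40.0%). POU2F2, ZNF143 and ZNF76 were in no listed term. POU2F1 (chromosome 1, 167220829 to 167427345) was in 2 other terms, both on DNA-templated transcription, and SP1 (chromosome 12, 53380176 to 53416446) in cellular response to insulin stimulus and viral process.

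The little elongation complex and its ELL partners gave 6 of 8 genes searched (75.0%), beside 50.0% of the term's own background genes and 21.6% of all background genes. The lists searched also hold genes that may not be annotated to the term, so their shares are not ranked. ICE1 is the scaffold of the complex, ICE2 and ZC3H8 are its other subunits, and ELL, ELL2 and ELL3 are elongation factors that keep the polymerase from pausing. EAF1 and EAF2, which bind ELL proteins, were in no listed term. ICE1 (chromosome 5, 5420664 to 5490234), ICE2, ZC3H8 and ELL were together in positive regulation of transcription from RNA polymerase III promoter. They made up 4 of its 8 genes (50.0%). Of 11 background genes of that term 8 were listed (72.7%), and the authors' deposited table gives a fold of 3.37, an unadjusted p of 0.00313 and a Benjamini p of 0.398. ELL, ELL2 and ELL3 were in the polymerase II elongation term, so ELL alone was in both. ZC3H8 had 4 other terms, among them apoptotic process, while ICE2 and ELL2 had 1 each.

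The cyclins had the highest median number of other terms among the complexes, 8, and CCNT1 the most of any of the 35 genes. CCNT1 and CCNT2 encode the cyclins of CDK9, together called P-TEFb, the kinase that releases paused polymerase, and CCNK encodes the cyclin of CDK12 and CDK13. CCNT1 (ENSG00000129315; chromosome 12, 48688458 to 48716998, minus strand) was in 10 other terms, CCNT2 (ENSG00000082258; chromosome 2, 134918235 to 134959342, plus strand) in 8 and CCNK (ENSG00000090061; chromosome 14, 99481169 to 99535044, plus strand) in 7. The kinases CDK9, CDK12 and CDK13 and the P-TEFb inhibitors HEXIM1 and LARP7 were in no listed term, leaving 3 of 8 genes searched (37.5%).

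All 3 cyclins were in cell division and protein phosphorylation. The authors' deposited table gives cell division a fold of 1.56 with a Benjamini p of 0.000256, and protein phosphorylation 1.36 with 0.035. All 3 were in the polymerase II elongation term, and CCNT1 and CCNT2 in transcription, DNA-templated. All 3 were also in both listed terms on cyclin-dependent kinase activity, neither past an adjusted p of 0.05 in the authors' deposited table. CCNT1 and CCNT2 were in cell cycle, and CCNK in cellular response to DNA damage stimulus and mitotic nuclear division. CCNT1 and CCNT2 were further named in phosphorylation of the polymerase's C-terminal domain, for which the authors' deposited table lists 5 of 8 background genes (fold 2.89, Benjamini p 0.939). Viral process and positive regulation of viral transcription held CCNT1 but neither CCNT2 nor CCNK.

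The last 3 genes act on the polymerase or on the transcript. RPAP2, a phosphatase of the C-terminal domain, and RPRD1B, which binds that domain, were in no other term and were 2 of 6 genes searched (33.3%). NCBP1, the large subunit of the nuclear cap-binding complex, was in 4 other terms, namely elongation, mRNA capping, RNA splicing and pre-mRNA cleavage for polyadenylation. NCBP2, its partner, and PHAX, SRRT, XPO1 and RAN, which act in snRNA export, were in no listed term (1 of 6 searched, 16.7%). None of 23 genes of the SMN complex and snRNP assembly was in a listed term. Like every gene said here to be in no listed term, they may still have been in the MDA231 list. This holds only for genes annotated to none of the listed terms. The spliceosomal tri-snRNP assembly term named none of the 35 genes. The authors' deposited table lists 6 of its 12 background genes (fold 2.32, Benjamini p 0.965).

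**Figure D3:**
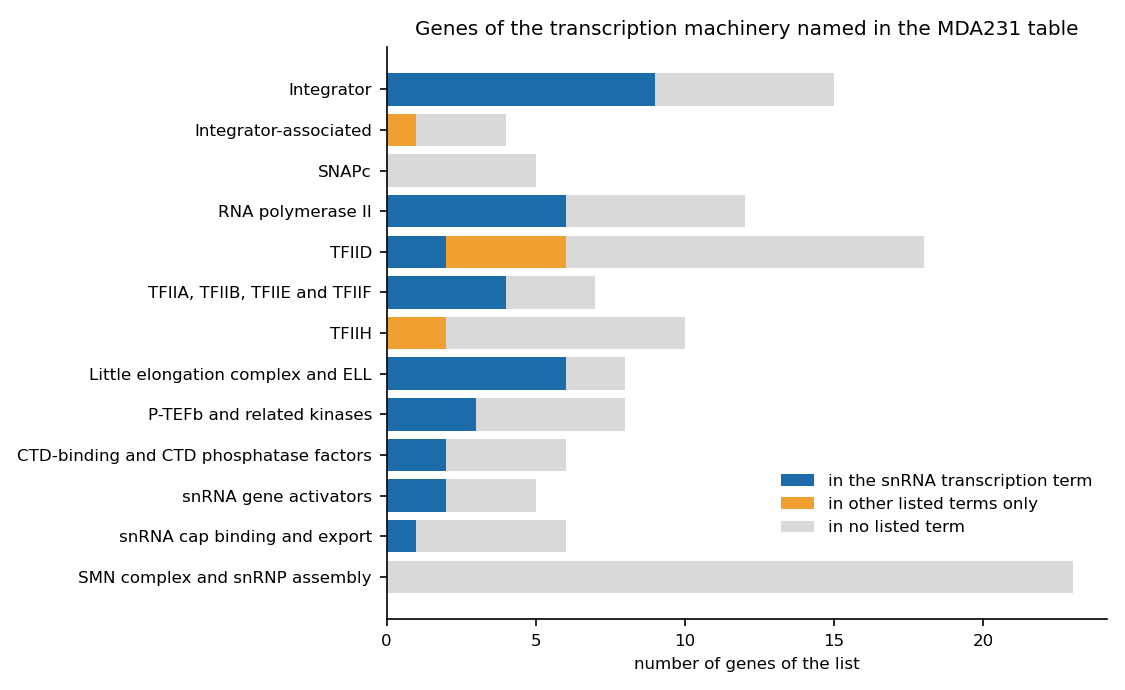
Bars give the number of genes in each of 13 lists of the transcription and snRNA machinery (x axis, genes), split into those in the snRNA transcription term (blue), those in other listed terms of the MDA231 table only (orange) and those in no listed term (grey). Integrator has 9 blue of 15, while SNAPc has 0 of 5 and TFIIH 0 of 10.

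Across the rest of the table, 35 other terms named at least 1 of the 35 genes, 16 of them a single gene and 8 of them at least 4. Elongation shared the most, 19 genes, which were 54.3% of the 35 and 63.3% of the 30 genes of that term. For elongation the authors' deposited table gives a fold of 1.62, an unadjusted p of 0.00623 and a Benjamini p of 0.515. Its 11 genes outside the snRNA term were CCNH, MNAT1, TAF1, TAF9B, TAF10, TAF12, ELOF1, NELFB and the Elongator genes ELP2, ELP3 and ELP4.

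Initiation shared 12 genes, 34.3% of the 35 and 28.6% of its own 42, and has a fold of 1.28 (Benjamini p 0.933) by the authors' deposited table. All 12 were also in elongation. The 30 other genes of initiation included nuclear receptors such as ESR1, VDR and RARA and the Mediator genes MED4, MED8, MED12, MED20 and MED23. mRNA capping shared 9 of its 14 genes (64.3%) and positive regulation of viral transcription 9 of its 12 (75.0%). Their folds by the authors' deposited table were 1.96 (Benjamini p 0.667) and 1.92 (Benjamini p 0.814). Transcription-coupled nucleotide-excision repair shared the 6 polymerase genes of its 24 (25.0%), with a fold of 1.50 and a Benjamini p of 0.831 by the authors' deposited table. The broad term transcription, DNA-templated shared 7 genes, 1.56% of its own identifiers, and the authors' deposited table gives it a fold of 1.06.

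Thus 8 terms overlapped the snRNA term in at least 4 genes, and none of the 8 had an adjusted p under 0.05 in the authors' deposited table. Of the 14 other terms that did, 6 named any of the 35 genes, through INTS3, CCNK, CCNT1 and CCNT2 alone. These 4 genes were 11.4% of the 35. Of all named genes, 30.5% were in at least 1 of those 14 terms, and 9.07% were in at least 2 of the 15 terms. For the genes of each of the 14 terms, the share also named in another of the 15 ran from 4.55% for fatty acid beta-oxidation to 91.4% for mitotic nuclear division. The shares depend on how the terms overlap in the annotation, and the difference between them was not tested.

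Counted over all terms, 32 of the 35 genes (91.4%) were in at least 1 other term, and 60.4% of all genes named in the table were in at least 1 term beyond their first. The exceptions were INTS14, RPAP2 and RPRD1B. The median was 2 other terms per gene among the 35 and 1 further term over all named genes. Over the genes of the other 14 terms with an adjusted p under 0.05, the median ran from 1 to 4. The share of genes in at least 1 further term ran there from 68.6% for cell-cell adhesion to 100% for mitotic nuclear division. By complex, the median number of other terms was 8 for the cyclins, 6 for the polymerase and 4 for TFIID and for NCBP1 alone. It was 3 for the general factors TFIIA, TFIIE and TFIIF, and 2 for the activators and for the little elongation complex and ELL. Integrator had a median of 1 and the C-terminal domain factors 0. The 35 genes had 26 distinct sets of other terms.

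**Figure D4:**
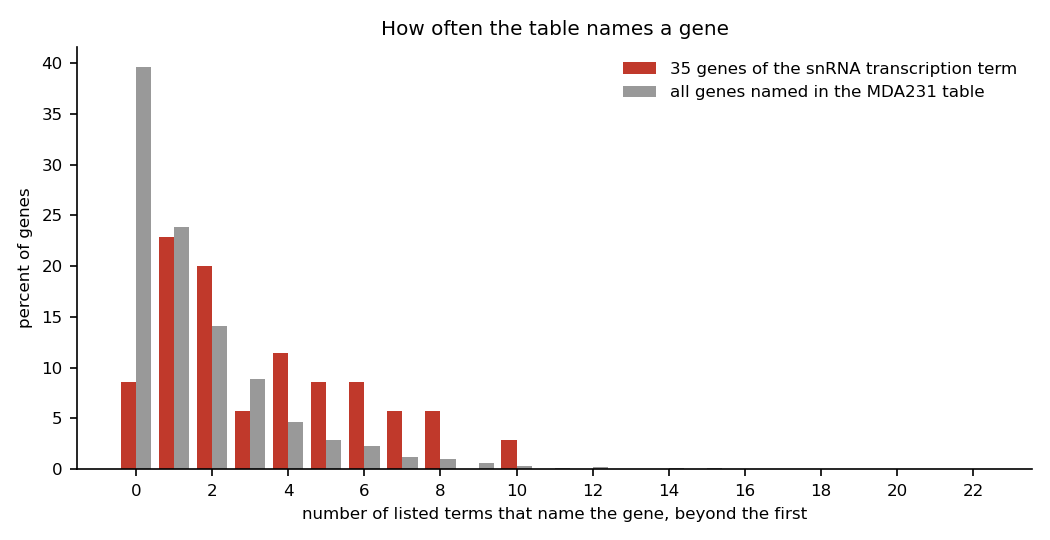
Bars give the percent of genes (y axis) by the number of listed terms that name the gene beyond the first (x axis), for the 35 genes (red) and for all 2646 genes named in the MDA231 table (grey). In the first bars, at 0 further terms, stand 8.57% of the 35 genes and 39.6% of all named genes.

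In the HCC1954 table, 0 of the 35 genes were named. That table names only 30 genes in 37 terms, none of them an snRNA term and 1 with transcription in its name. The MDA231 table names 2646 genes, and 2676 genes are named in the MDA231 or the HCC1954 table. No gene of the MDA231 table was therefore named in the HCC1954 table, so the absence is not particular to the 35 genes. The sizes of the tables differ, and the difference between the lines was not tested for these genes.

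On the genome the 35 genes lay on 16 chromosomes, with at most 4 on any of them (GENCODE release 29, GRCh38). The closest pair was TAF6 and POLR2J on chromosome 7, 2.35 Mb apart. Gene length ran from 4944 bases for ELL3 to 206517 for POU2F1, with a median of 41108. Exons of 20 of the 35 genes overlapped an exon of another gene, a protein-coding one in 15 cases. The same share was not counted over all genes, so these counts are not read as a trait of the group. CCNK shared 4893 exon bases with CCDC85C on the opposite strand, INTS8 shared 1629 with the cyclin gene CCNE2 on the opposite strand, and ELL3 shared 1558 with AC018512.1 on the same strand. TAF6 shared 1010 with AP4M1 on the opposite strand. No source used here states whether reads were counted by strand, so reads from these pairs may not have been told apart.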

How the data were processed

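RNA of 16 libraries was sequenced by the authors. The submitters' processing notes name STAR, HTSeq, GRCh38 and GRCm38 (versions: not given in the sources used here). Per the file headers, each deposited table holds Gene Ontology terms with the number of listed genes, that number as a percent of the submitted genes, a fold enrichment (the ratio of listed to background share), p-values (unadjusted, Bonferroni and Benjamini) and a false discovery rate in percent. Neither the tool behind the enrichment nor the rule that made the gene lists is named in any source used here.

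The genes of the snRNA transcription term were taken from the term's identifiers, paired with symbols, and counted over the other terms and over 13 lists (127 genes) of the transcription and snRNA machinery. The members and lists were chosen with earlier results of these data known. No test was run. The counting was tested on simulated data. The interval of the fold is an exact (Clopper-Pearson) 95% binomial interval of listed genes divided by the background share. Every member was named, and all terms were given for the 10 members in most other terms (ties by symbol). Terms were named where they held at least 4 members, and others, such as tri-snRNP assembly and the single-gene terms of some members, were added after their values were seen. TAF1 and MNAT1 were named as the proposed markers. Printed promoters were chosen after the windows were seen. Depth per library is unknown here. Alternatives are given in the closing section. Python 3.11.15, pandas 2.3.3, NumPy 2.4.6, SciPy 1.17.1 and matplotlib 3.10.9 were used.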

Additional observations from a re-analysis of the deposited data

How the results depend on the processing

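No value has a replicate error, because no value per library enters these tables. No paired analysis was possible because the result comes from no test over libraries. Of 20 alternatives over 10 results, 19 stayed within 1.5 times the main count, within the interval of the fold, at the same median or on the same side of an adjusted p of 0.05. Several could hardly come out otherwise, such as the deposited count of the same term, symbols that start with POLR2 or removal of 1 gene. The tally is therefore no measure of how stable the results are. The exception was the list for TFIID: with the general factors TFIIA, TFIIB, TFIIE and TFIIF added, 6 genes in place of 2 were in the snRNA term, which follows from the longer list. The fold was 2.25 with 1 gene taken from the term and the list and 2.28 without CCNT1, a choice made after seeing the data. The authors' Bonferroni p was 0.00334. With overlapping terms (a Jaccard index of 0.2 or more) left out, 25 of the 35 genes were still in another term. The planned median without TAF1 was not run, as TAF1 was not among the genes, and CCNT1 was left out in its place, also with a median of 2. Leaving out replicates could not be done.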
